A study of Mus musculus with 6 samples.

Results

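The gene neighborhood of Tbx5 on mouse chromosome 5 was examined in ventricles of embryos in which Tbx5ua, the lncRNA transcribed divergently from a Tbx5 promoter, had been knocked down. A gene was taken as a neighbor if its row lay wholly within a window of chromosome 5 (mm10) that runs from 2.03 Mb below the start of Tbx5 to 2.01 Mb above its end, with Tbx5, Tbx3 and the ribosomal protein gene Rpl6 left out. This gave 55 neighbors out of 23284 genes in the table. RNA-seq had been carried out on heart ventricles of C57BL/6 embryos at E9.5, 3 of them WT and 3 KD (genotype Tbx5ua -/-). Both groups were tetraploid chimeras, made so that injected ES cells give rise to the embryo itself, and in the KD cells tandem polyadenylation signals inserted in the second exon of Tbx5ua end its transcription early on both alleles. Clonal ES cells were used, and which line gave the KD embryos of the RNA-seq is not given in the sources used here. Each gene has 1 FPKM value per group, pooled by the authors over its 3 embryos. FPKM is the number of fragments of a gene scaled to its length and to the sequencing depth. No value of a single embryo was available for analysis, so no SD can be given and no test between the groups was made. The test values that the authors deposited were not used. A difference below is a difference between 2 group values whose error was not estimated here. The read depth is unknown.

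Tbx5 encodes a DNA-binding protein of the T-box family, and mutations of the human gene cause Holt-Oram syndrome. Its paralog Tbx3 lies beside it. Genes of the same stretch of chromosome can share enhancers, and a divergent lncRNA may act in cis, through its transcript or through the act of its transcription, on genes near its own start site. The levels of neighboring genes are therefore a common readout for a cis effect. In the table Tbx5 spans 119834663 to 119885218 of the chromosome. Its level was 17.2 FPKM in the WT and 15.7 FPKM in the KD group, and Tbx3, 150 kb away on the lower-coordinate side, had 3.53 FPKM in the WT and 3.11 FPKM in the KD group. Tbx5ua itself was not analysed here, so the knockdown could not be checked in these libraries.

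The tissue label was compared with marker genes. The 6 ventricular cardiomyocyte markers were all above 1 FPKM in both groups, with Myl2 at 10924 FPKM in the WT and 12702 FPKM in the KD group. Of the 6, 4 were higher and 2 lower in KD. The 2 lower were Irx4 at 31.8 and 27.6 FPKM (WT, KD) and Tnnt2 at 1842 and 1807 FPKM. Of 5 atrial markers 4 reached 1 FPKM in either group and Sln was listed at 0 in both. Myl4 was at 6082 and 5896 FPKM (WT, KD), and Nr2f2 at 2.01 and 4.15 FPKM. Nr2f1 (0.552 and 1.07 FPKM) and Vsnl1 (0.555 and 1.14 FPKM) reached 1 FPKM in KD alone, the group where they were higher. Of 5 neural markers, Tubb3 was at 12.2 and 26.9 FPKM (WT, KD) and Nefl at 7.003 and 5.62 FPKM, while Elavl3 and Pax6 were below 1 FPKM and Sox2 was listed at 0 in both groups. Of 4 hepatic and yolk sac markers 0 reached 1 FPKM, and Alb was listed at 0 in both groups. All 6 epicardial markers had a higher value in KD, 5 of them past 1.5-fold (4.48% of all genes above 1 FPKM were higher by that much). Aldh1a2 was among the 5 and reached 1 FPKM in KD alone. Their summed level was 47.0 FPKM in the WT and 95.9 FPKM in the KD group. The summed level was 99.98 FPKM (WT) and 112 FPKM (KD) for 5 endocardial markers, and 11438 and 11518 FPKM for 5 erythroid markers. In each of these 2 lists 3 markers were higher and 2 lower in KD. Of the endocardial ones, Emcn had the highest ratio, with 43.1 and 57.4 FPKM (WT, KD). Nfatc1 (16.4 and 13.7 FPKM) and Cdh5 (10.5 and 9.74 FPKM) were lower in KD. In bulk ventricles, a difference in the number of cells of a type and a difference in RNA per cell, in either direction, cannot be told apart. The part of these cell types in the values below was not tested.

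None of the neighbors differed between the groups by 1.5-fold or more at a level of at least 1 FPKM. Of the 55 neighbors, 24 reached 1 FPKM in either group, and all 24 are protein-coding genes in RefSeq. Among these 24, 0 were higher and 0 were lower by 1.5-fold, while 7.58% of the 11606 genes of the table above the same level were past that fold, 4.48% higher and 3.10% lower in KD. A 2-fold difference was seen in 0 of the 24 and in 2.49% of all genes, 1.43% higher and 1.06% lower. The fold was computed as the log2 ratio of KD to WT after adding 0.1 FPKM to each. With so few neighbors a share of this size amounts to about 1 or 2 genes, so the count of 0 is near the background and is not a result about the neighbors. The log2 ratios of the 24 genes ran from -0.53 for Acad12 to 0.19 for Plbd2. Their median was -0.04, and the medians of all 11606 genes and of the 705 genes of the rest of chromosome 5 above the same level were 0.00 and 0.01. The median of the neighbors was -0.02 with a floor of 5 FPKM and -0.08 with no floor. Of the 24 genes 15 had a lower and 9 a higher value in KD, so 37.5% were higher, against 50.9% of all genes. The summed level of all 55 neighbors was 359 FPKM in the WT and 356 FPKM in the KD group.

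**Figure D1:**
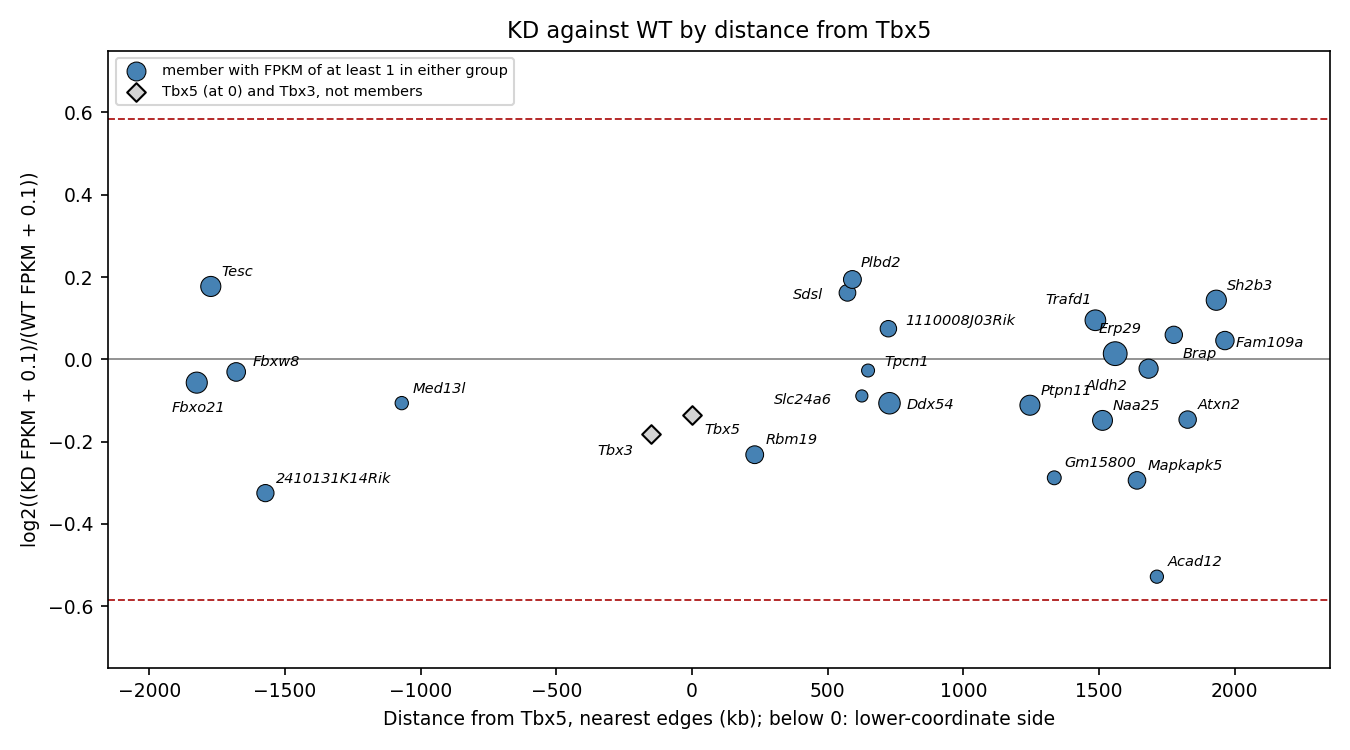
Log2 ratio of KD to WT (0.1 FPKM added to each) of the 24 neighbors with at least 1 FPKM in either group, against the distance in kb between the nearest edges of the gene and of Tbx5. Larger points have a higher WT level, grey diamonds are Tbx5 and Tbx3, and dashed lines mark 1.5-fold. All 24 points lie between the dashed lines, from -0.53 (Acad12) to 0.19 (Plbd2).

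Promoters of the expressed neighbors held more CpG dinucleotides than those of the others. The RefSeq promoters (build GRCm38.p6, 250 bases before to 50 bases after a transcription start) of 35 neighbors were matched by symbol, 42 sequences in all, some of them overlapping. The 19 promoters of neighbors above 1 FPKM held a median of 30 CpG dinucleotides, with a range of 2 to 61, and the 23 promoters of neighbors below that level a median of 5, with a range of 1 to 48. Over the whole table the medians were 21 for 11720 promoters of genes above 1 FPKM and 4 for 9458 promoters of genes below, a contrast in the same direction. The promoters of the nearest neighbor above 1 FPKM on each side of Tbx5 (Med13l and Rbm19), of the neighbor above 1 FPKM with the lowest ratio (Acad12) and of a neighbor near 0 FPKM (Oas3) are shown 5′ to 3′ with each CpG in capitals. They lie at chr5:118560469-118560768 on the plus strand, chr5:120116263-120116562 on the plus strand, chr5:121618889-121619188 on the minus strand and chr5:120777610-120777909 on the minus strand, with 61, 23, 37 and 3 CpG dinucleotides.
Med13l: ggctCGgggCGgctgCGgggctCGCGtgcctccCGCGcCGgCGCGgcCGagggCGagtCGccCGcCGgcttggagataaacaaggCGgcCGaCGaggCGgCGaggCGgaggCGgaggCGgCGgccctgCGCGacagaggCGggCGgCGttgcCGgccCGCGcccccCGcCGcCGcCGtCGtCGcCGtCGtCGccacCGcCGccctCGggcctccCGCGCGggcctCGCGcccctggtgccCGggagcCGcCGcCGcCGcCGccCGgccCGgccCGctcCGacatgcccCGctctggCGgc
Rbm19: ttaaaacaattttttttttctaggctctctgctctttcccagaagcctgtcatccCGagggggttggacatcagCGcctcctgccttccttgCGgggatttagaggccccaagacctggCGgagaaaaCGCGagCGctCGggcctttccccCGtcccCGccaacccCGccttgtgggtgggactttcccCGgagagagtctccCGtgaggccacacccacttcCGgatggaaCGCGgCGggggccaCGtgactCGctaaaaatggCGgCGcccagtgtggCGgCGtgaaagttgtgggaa
Acad12: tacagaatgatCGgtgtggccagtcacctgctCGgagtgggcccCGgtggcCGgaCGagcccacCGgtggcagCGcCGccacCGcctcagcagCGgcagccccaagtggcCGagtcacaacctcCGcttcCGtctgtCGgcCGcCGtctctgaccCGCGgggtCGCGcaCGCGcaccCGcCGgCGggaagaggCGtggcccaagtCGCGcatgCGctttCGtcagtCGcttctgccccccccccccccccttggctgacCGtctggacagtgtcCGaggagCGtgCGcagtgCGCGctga
Oas3: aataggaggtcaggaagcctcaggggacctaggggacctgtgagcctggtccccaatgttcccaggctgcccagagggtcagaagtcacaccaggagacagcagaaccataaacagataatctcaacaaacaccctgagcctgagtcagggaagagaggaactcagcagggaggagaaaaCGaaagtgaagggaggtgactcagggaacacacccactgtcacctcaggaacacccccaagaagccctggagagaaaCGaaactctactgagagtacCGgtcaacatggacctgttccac
The core of the T-box binding motif, GGTGTGA on either strand, was found in 0 of the 19 promoters of neighbors above 1 FPKM, which belong to 16 of those 24 genes, and in 2 of all 42, those of Oas3 and Gm10390. Promoters of Sdsl, Plbd2, Fbxw8, Slc24a6, Tpcn1, Naa25, Erp29 and Aldh2 were not analysed here. It occurs in 3.98% of the 32851 mouse promoters of the RefSeq set. A match is only a description of the letters in this window.

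Close to Tbx5 the neighbors on the lower-coordinate side were listed below 1 FPKM, unlike Tbx3, which is not counted as a neighbor. In the 1 Mb below Tbx5 the table lists 6 neighbors, and 0 of them reached 1 FPKM, against 49.8% of all rows. They are uncharacterized transcripts, 5 of them annotated as lncRNA in RefSeq. The 49.8% is over rows of every transcript type. All 24 neighbors above 1 FPKM are protein-coding, so transcript type and position cannot be told apart here. AW549542, 254 kb from Tbx5, had 0.315 FPKM in the WT and 0.213 FPKM in the KD group, and G630008E18, 200 kb from Tbx5, had 0.0199 FPKM in WT and was listed at 0 in KD. LOC433944, Gm7538, 1700081H04Rik and 4930413E15Rik were listed at 0 in both groups. The first gene above 1 FPKM on this side, apart from Tbx3, is Med13l at 1069 kb. On the higher-coordinate side the first is Rbm19 at 231 kb, and 7 of 22 neighbors within 1 Mb were above 1 FPKM.

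**Figure D2:**
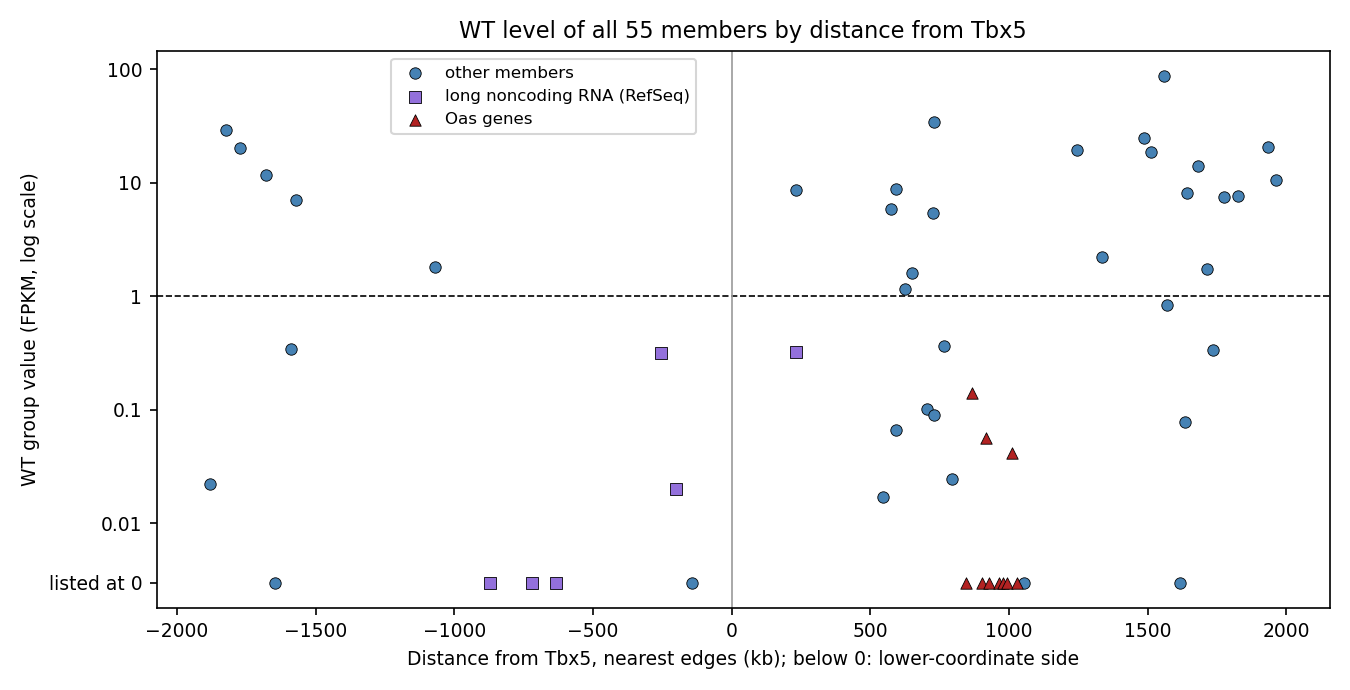
WT group value in FPKM (log scale) of all 55 neighbors against the distance from Tbx5 in kb, with genes listed at 0 placed on the lowest line and the dashed line at 1 FPKM. Squares are lncRNA genes and triangles the 10 Oas genes. Levels above 1 FPKM start at 1069 kb on the lower-coordinate side (left) and at 231 kb on the higher-coordinate side (right).

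Over the 24 neighbors above 1 FPKM the ratios showed little order by distance from Tbx5. Rbm19 was the only one of them within 0.5 Mb, so an order close to Tbx5 could not be examined. The median log2 ratio was -0.06 over 5 genes beyond 1 Mb on the lower-coordinate side, -0.03 over 7 genes within 1 Mb on the higher-coordinate side and -0.07 over 12 genes beyond 1 Mb on that side. These bins hold few genes, and with only genes of at least 5 FPKM the median within 1 Mb on the higher-coordinate side was 0.07 and that beyond it -0.0046. With the limit at 0.5 Mb in place of 1 Mb the nearer bin on that side held Rbm19 alone, at -0.23, and the farther one had a median of -0.03. Across the 24 genes the Spearman correlation of the size of the log2 ratio with distance was -0.14, and that of the signed ratio was 0.00. Over the 19 genes of the higher-coordinate side they were -0.17 and -0.10. Genes share the same libraries and are not independent, so these correlations are a description without a p-value. Farther out on chromosome 5, non-members at 2 to 4 Mb had a median of 0.02 over 39 genes, those at 4 to 10 Mb had a median of 0.04 over 111 genes, and those from 10 Mb had a median of 0.01 over 551 genes.

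Rbm19, which encodes an RNA-binding protein of ribosome biogenesis, is the closest neighbor with a level above 1 FPKM. It lies from 120116513 to 120198971 and had a WT value of 8.61 and a KD value of 7.32 FPKM, a log2 ratio of -0.23. At 15.5% of the way up the ranked ratios of all 11606 genes, it is within the ordinary run of the table. The antisense transcript Gm10390 is given the same locus in the table, with 0.323 FPKM in the WT and 0.255 FPKM in the KD group. Smart-Seq2 does not mark the strand, so reads of the pair cannot be fully told apart. The next above this level are Sdsl, a serine dehydratase-like enzyme gene at 573 kb, and Plbd2, a lysosomal phospholipase B-like gene at 591 kb. Sdsl had a WT value of 5.88 and a KD value of 6.59 FPKM, and Plbd2 had 8.83 FPKM in the WT and 10.1 FPKM in the KD group. Both were higher in KD, unlike Rbm19, with log2 ratios of 0.16 and 0.19. Plbd2 shares its locus in the table with Sds, which had a WT value of 0.0667 and a KD value of 0.0586 FPKM.

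Among genes of transcription and RNA, all 4 above 1 FPKM had a lower value in KD, with a median log2 ratio of -0.13 and none past 1.5-fold. Of all genes 50.9% were higher in KD, and of the 24 neighbors 15 were lower. Besides Rbm19 they are Med13l, Ddx54 and Atxn2. Med13l, which encodes a subunit of the kinase module of Mediator and is mutated in a human disorder with heart defects, had 1.80 FPKM in the WT and 1.67 FPKM in the KD group. Ddx54, a DEAD-box RNA helicase gene, had a WT value of 34.1 and a KD value of 31.7 FPKM, and shares its locus in the table with Ccdc42b, which was below 1 FPKM. Atxn2, an RNA-binding protein gene, had 7.62 FPKM in the WT and 6.87 FPKM in the KD group. Their ratios lay between -0.15 and -0.11, small beside the spread of single genes over the table. Lhx5, a LIM-homeobox gene of the nervous system, was near 0 with a WT value of 0.01715 and a KD value of 0.00714 FPKM. For comparison, the 6 other genes of the Mediator kinase module elsewhere in the genome had a median of -0.18, with 5 lower and 1 higher in KD. Of these, Cdk19 was past 1.5-fold with 0.967 FPKM in the WT and 1.68 FPKM in the KD group, and Med12l with a WT value of 2.34 and a KD value of 1.44 FPKM. Cdk19 reached 1 FPKM only in KD, where it was higher, and 7.58% of all genes were past that fold.

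Of the 5 genes of Ras-MAPK and tyrosine kinase signalling, 4 were above 1 FPKM, with 0 past 1.5-fold and a median log2 ratio of -0.03. Ptpn11 encodes SHP2, a phosphatase that promotes Ras signalling and is mutated in Noonan syndrome, in which heart defects are frequent. It lies from 121130533 to 121191397, 1245 kb from Tbx5, and had 19.4 FPKM in the WT and 17.99 FPKM in the KD group, a log2 ratio of -0.11. Sh2b3, an adaptor that dampens cytokine receptor signalling, had a WT value of 20.6 and a KD value of 22.7 FPKM. Brap, a regulator of Ras signalling, had 7.39 FPKM in the WT and 7.70 FPKM in the KD group. Mapkapk5, a kinase downstream of MAP kinases, had the log2 ratio farthest from 0 among the 4 above 1 FPKM, with a WT value of 8.02 and a KD value of 6.52 FPKM, a log2 ratio of -0.29. Of the 4, 2 were lower and 2 higher in KD. Rasal1, a Ras GTPase-activating protein gene, was below the level threshold, with 0.360 FPKM in the WT and 0.683 FPKM in the KD group. Of 17 core genes of the same pathway elsewhere in the genome 16 had a row, all above 1 FPKM, with a median of -0.01, 9 lower and 7 higher in KD, and 0 past 1.5-fold, which is near the 7.58% of all genes for a list of this size.

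Among the 24 neighbors above 1 FPKM, the log2 ratio farthest from 0 was that of Acad12, one of a pair of adjacent acyl-CoA dehydrogenase genes. It lies from 121598281 to 121618938, 1713 kb from Tbx5, and had a WT value of 1.74 and a KD value of 1.17 FPKM, a log2 ratio of -0.53. Of all genes above 1 FPKM, 3.66% had a ratio as low or lower. With 1 FPKM in place of 0.1 added to each value, its log2 ratio was -0.33. Genes at such low levels vary widely in this table. Over the 3675 genes whose higher group value was 1 to 5 FPKM, the central 95% of log2 ratios ran from -0.87 to 1.05, which holds Acad12. The adjacent Acad10 had 0.334 FPKM in the WT and 0.295 FPKM in the KD group. Aldh2, the mitochondrial aldehyde dehydrogenase that clears acetaldehyde, lies beside them and had a WT value of 13.9 and a KD value of 13.7 FPKM. Slc24a6 (now Slc8b1), the sodium-calcium exchanger of the mitochondrial inner membrane, had 1.15 FPKM in the WT and 1.08 FPKM in the KD group. Of the 4 genes of mitochondrial and amino acid metabolism above 1 FPKM, 3 were lower and 1, Sdsl, was higher in KD.

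Next among these 24 was 2410131K14Rik (now Spring1), a regulator of the sterol-sensing SREBP pathway, 1572 kb below Tbx5. It had a WT value of 7.01 and a KD value of 5.58 FPKM, a log2 ratio of -0.33. Its divergent partner Rnft2, whose start lies 202 bases away, had 0.344 FPKM in the WT and 0.313 FPKM in the KD group. Acad12 and 2410131K14Rik were the 2 neighbors above 1 FPKM with a log2 ratio over 0.32 in size, 8.33% of the 24, both lower in KD. Of all genes 21.5% were past that ratio, 12.1% higher and 9.34% lower. Farther from Tbx5 on the same side, Fbxw8, an F-box subunit of a ubiquitin ligase, had a WT value of 11.6 and a KD value of 11.3 FPKM. Tesc, a calcium-binding protein gene, had 19.96 FPKM in the WT and 22.6 FPKM in the KD group, and was the 1 gene of this side with a higher value in KD. Fbxo21, another F-box gene, had a WT value of 29.0 and a KD value of 27.8 FPKM. Nos1, the neuronal nitric oxide synthase gene, had 0.0221 FPKM in the WT and 0.0118 FPKM in the KD group, and the apoptosis gene Hrk was listed at 0 in both groups.

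**Figure D3:**
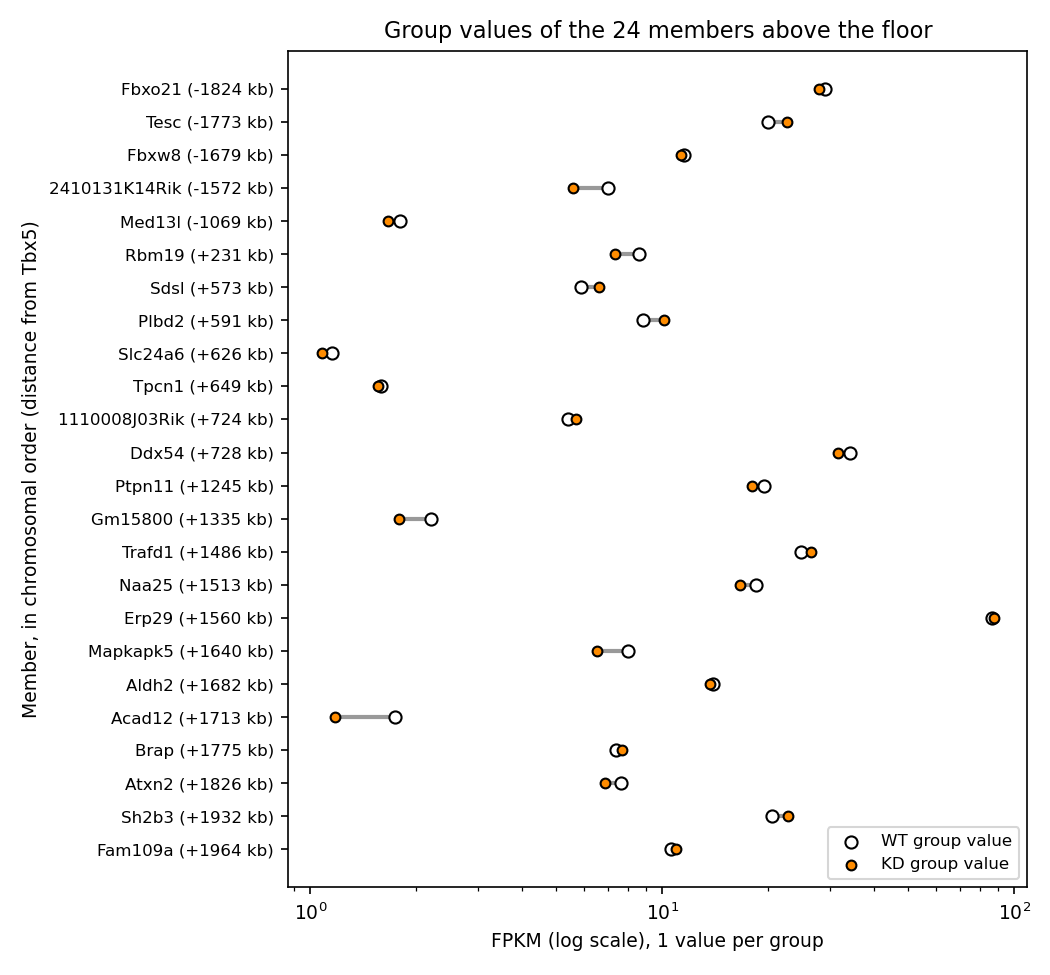
WT (open circles) and KD (filled circles) group values in FPKM on a log scale for the 24 neighbors above 1 FPKM, in chromosomal order with the distance from Tbx5 in kb. Bars join the values of a gene and are not errors. The longest bar is that of Acad12, from 1.74 to 1.17 FPKM, and the values of Erp29, the highest gene, nearly coincide.

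The 5 neighbors with the highest WT level had log2 ratios between -0.11 and 0.14. Erp29, a chaperone of the endoplasmic reticulum and the neighbor with the highest level, had a WT value of 86.7 and a KD value of 87.5 FPKM, a log2 ratio of 0.01. After Erp29 and Ddx54 the highest in WT were Fbxo21, Trafd1 and Sh2b3. Trafd1, a feedback regulator of innate immune signalling, had 24.8 FPKM in the WT and 26.5 FPKM in the KD group. Naa25, the auxiliary subunit of the N-terminal acetyltransferase NatB, had a WT value of 18.4 and a KD value of 16.6 FPKM. Gm15800 (now Hectd4), a large HECT-type ubiquitin ligase gene, was lower in level and had 2.20 FPKM in the WT and 1.79 FPKM in the KD group, a log2 ratio of -0.29. Across the 24 genes the Spearman correlation of the WT level with the size of the log2 ratio was -0.25, a description over genes of the same libraries. Tpcn1, a two-pore channel of endolysosomes, had a WT value of 1.58 and a KD value of 1.55 FPKM. Fam109a (now Pheta1), an endosomal trafficking gene, had 10.6 FPKM in the WT and 11.0 FPKM in the KD group.

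The replicate error was not estimated here, so the spread of ratios over all genes of like level was the yardstick used. It contains the error and any effect of the knockdown together. Over 3912 genes with a higher group value of 5 to 20 FPKM the central 95% of log2 ratios ran from -0.48 to 0.61, and over 4019 genes of 20 FPKM or more from -0.39 to 0.46. All 24 neighbors lay within the central 95% of their level class. Within the middle 50% of their class were 15 of the 24 neighbors, or 62.5%. A ratio of less than 1.1-fold in either direction was seen in 13 of the 24, or 54.2%, against 46.0% of all genes.

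**Figure D4:**
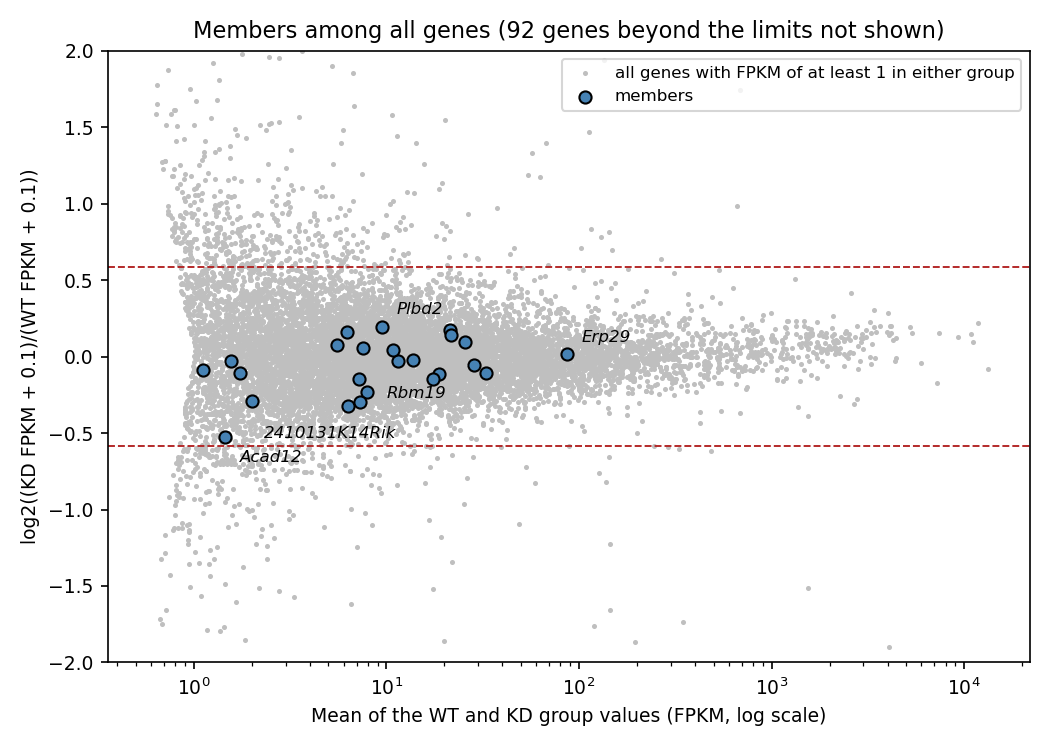
Log2 ratio of KD to WT against the mean of both group values in FPKM (log scale) for the 11606 genes above 1 FPKM in either group (grey) and the 24 neighbors (blue), with dashed lines at 1.5-fold. A further 92 grey genes lie beyond the limits of the vertical axis. The neighbors lie within the cloud of all genes, between log2 ratios of -0.53 and 0.19.

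The Oas cluster, which makes up 10 of the 55 neighbors, was listed at or near 0 in both groups. Oas genes encode oligoadenylate synthetases, which are induced by interferon and activate RNase L upon sensing double-stranded RNA. Of the 10, 7 were listed at 0 in both groups. The others were Oas3 with a WT value of 0.140 and a KD value of 0.0338 FPKM, Oas1c with 0.0568 FPKM in the WT and 0.0711 FPKM in the KD group, and Oas1a with a WT value of 0.0411 and a KD value of 0.0867 FPKM. At such levels no fold is interpretable without the read counts, and near-identical Oas1 copies can share reads. Of 12 other interferon-stimulated genes 3 were above 1 FPKM, with 0 past 1.5-fold, a count that 7.58% of all genes leaves near the background. Stat2 was among the 3 and reached 1 FPKM in KD alone. The highest of the 3 was Bst2 with 16.9 FPKM in the WT and 24.3 FPKM in the KD group.

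In all 31 neighbors stayed below 1 FPKM in both groups, and 13 of them were listed at 0 in both. The neighbors were near the whole table in this, with 43.6% of them and 49.8% of all rows above 1 FPKM, and 23.6% of them and 25.3% of all rows at 0 in both groups. The highest of them was Tmem116 with a WT value of 0.837 and a KD value of 0.792 FPKM. With no floor on the level, 3 of these low genes were past 1.5-fold, 1 higher and 2 lower in KD. They are 7.14% of the 42 neighbors above 0 in either group, against 16.2% of all 17383 such genes, 9.39% higher and 6.80% lower. Iqcd had 0.101 FPKM in the WT and 0.0335 FPKM in the KD group, and Oas3 and Rasal1 have been described. Dtx1, a Notch pathway ubiquitin ligase gene, had 0.0246 FPKM in WT and was listed at 0 in KD. Rph3a, a gene of synaptic vesicle traffic, was listed at 0 in WT and had 0.00386 FPKM in KD. A value of 0 is only a listed value, and whether such a gene is silent was not tested. Of 97 rows picked by a name of the ribosomal protein form, 1 was at 0 in both groups as well. Whether that row is a gene active in the ventricle was not checked.

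Because Tbx5ua itself starts head to head with a coding gene, head-to-head pairs among the neighbors were listed. In 6 pairs the annotated starts lie less than 1000 bases apart on opposite strands. Only 1110008J03Rik (now Rita1) and Ddx54, 541 bases apart, were both above 1 FPKM. 1110008J03Rik, which encodes a tubulin-associated regulator of the Notch effector RBPJ, had a WT value of 5.41 and a KD value of 5.70 FPKM, a log2 ratio of 0.07, while Ddx54 had a log2 ratio of -0.11. In 4 pairs one gene was above 1 FPKM and its partner below. The widest contrast was that of Erp29 at 86.7 FPKM and Tmem116 at 0.837 FPKM in WT, with starts 235 bases apart, followed by Brap at 7.39 FPKM and Acad10 at 0.334 FPKM, 76 bases apart. In each of these 3 pairs the partners were further apart in level than either gene was between WT and KD.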

How the data were processed

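RNA-seq of E9.5 ventricles from 3 WT and 3 KD chimeric embryos was used. Per the labels, libraries were made from 10 ng of total RNA by Smart-Seq2, with 12 cycles of preamplification and 9 of enrichment PCR, and single-end reads were taken. The submitters' processing notes name TopHat, Bowtie2 and Cuffdiff on mm10. Their versions are not given in the sources used here. The authors deposited 1 Cuffdiff table with an FPKM value per gene for WT and for KD (headed KO). It also holds the fold change, test statistic and p- and q-values of the authors' own comparison, which were not used. No per-embryo values were used, so no test was made, and the depth of each library and the precision it gives are unknown.

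Neighbors were selected by the locus column. Its starts count from 0 and 1 was added. Distance was taken between nearest edges, and genes merged into a shared locus keep that locus. Log2 ratios were computed after adding 0.1 FPKM, over genes of at least 1 FPKM in either group, and 1.5-fold was the threshold. The members and lists were chosen with earlier results of these data known. Named in full are the members past 1.5-fold (0 here), the 3 nearest above 1 FPKM on each side and the 5 highest in WT. Those of the role lists are named as well, apart from the 7 Oas genes listed at 0 in both groups. Other members were named after their values were seen. Companion lists were Ras-MAPK, interferon-stimulated and Mediator genes, and marker lists were ventricular, atrial, epicardial, endocardial, erythroid, hepatic and yolk sac, and neural. Of the 55 members, 54 matched a RefSeq symbol or synonym and 53 a GENCODE M21 gene, each of which it overlapped. Of 50 protein-coding GENCODE genes in the window, 49 had a row, and of 28 lincRNA or antisense genes 5 did, so most lncRNA genes of the window were not analysed here. Alternatives were other folds, floors, pseudocounts, centring, windows and distances. The fold rule was tested on simulated data. Python 3.11.15, NumPy 2.4.6, pandas 2.3.3, SciPy 1.17.1 and Matplotlib 3.10.9 were used.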

Additional observations from a re-analysis of the deposited data

How the results depend on the processing

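No paired analysis was possible because only 1 value per group, and none of single embryos, was used. For the same reason leaving out each replicate and a fit with the replicate number as a block were not run. The count of 0 neighbors past 1.5-fold in each direction held with a floor of 5 FPKM, pseudocounts of 1 and 0.01, the median of all genes subtracted, only neighbors within 1 Mb of Tbx5, neighbors with an overlapping row left out, and a 2-fold threshold. With a log2 threshold of 0.32 it became 2 lower, and with no floor 1 higher and 2 lower. No spread between embryos was available to judge a move of a median. The median of -0.04 over the neighbors became -0.0229 with a floor of 5 FPKM, -0.0806 with no floor and -0.0399 with a pseudocount of 1. It was -0.0440 with a pseudocount of 0.01 and -0.0487 with the median of all genes subtracted. Within 1 Mb of Tbx5 it was -0.0273, and without overlapping neighbors -0.0308. With a floor of 5 FPKM the medians by side became -0.0438 beyond 1 Mb on the lower side, 0.0743 within 1 Mb on the higher side, which is a change of sign, and -0.0046 beyond it. With a pseudocount of 1 the medians by side were -0.0550, -0.0177 and -0.0640, in the same order. With the limit at 0.5 Mb the medians on the higher side were -0.23, from Rbm19 alone, and -0.0251. None of the 24 single ratios changed sign under the other pseudocounts or with the median of all genes, 0.0049, subtracted. The unknown depth limits genes of low level.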
